A study of Caenorhabditis elegans with 2 samples.

Results

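SOX-2 binding was mapped by chromatin immunoprecipitation and sequencing (ChIP-seq), and the peaks described here are those inside introns of protein-coding genes. Of 8504 peaks in the ranked list made from both replicates, 8486 lay on nuclear chromosomes and 1729 were intronic. A peak was intronic when its summit, the position of highest signal, lay in an intron of a protein-coding gene and outside every exon. It also had to lie outside the stretch from 1000 bp upstream to 200 bp downstream of a protein-coding 5′ end, with no tRNA, snoRNA or snRNA gene within 500 bp. The 1729 peaks fell in 1266 host genes, and 75 of them (4.34%), in 66 host genes, were in the thresholded list of the series, against 7.78% of all nuclear ranked peaks. That list holds peaks with an IDR, the irreproducible discovery rate, of at most 0.01. A low IDR means that a peak stands high in both of 2 compared rankings. The lists do not name the rankings compared, and some of the 75 have a ranked summit in a single replicate. The nuclear peaks include 440 near tRNA, snoRNA or snRNA genes, which the rule excludes, and 179 of those (40.7%) were thresholded. All embryos came from C. elegans strain RW12244. Its allele st12244 carries a TY1, EGFP and 3xFLAG tag that CRISPR put on the endogenous X-linked sox-2 gene, and the antibody used was against GFP. Whole late embryos, staged by egg bleaching and given an age of 3.5 hours, formed 1 group of 2 biological replicates, so a peak can come from any cell type of the embryo. Chromatin was sonicated to 200 to 800 bp. The group has no second condition to be set against, no control was analysed here, and the lists carry no read counts, so their depth is unknown.

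SOX proteins bind DNA through an HMG box, which sits in the minor groove and bends the helix at short sites built around the letters ATTGT. SOX2 in vertebrates maintains pluripotent cells and neural progenitors, and in C. elegans sox-2 acts in progenitors of neurons and of some epithelial cells. Introns hold enhancers and internal promoters beside splice signals, and the long introns of C. elegans developmental genes are known places for such elements. A peak in an intron marks where the tagged protein was recovered and does not say which gene, the host or a neighbour, it acts on.

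Windows of 101 bases centred on the summits are printed for the letters that recurred at thresholded intronic peaks. All are the plus strand of ce11, 5′ to 3′, taken from the RefSeq WBcel235 sequence of the same assembly. In the first set, capitals mark TATTGT or its reverse complement, a 6-mer that ends in the SOX letters ATTGT. C46H3.2 and egl-18 are shown because they host the strongest intronic peaks, and magu-2, vab-1 and sax-7 as hosts named below. The windows are at chrX:1223911-1224011 for C46H3.2, chrIV:1916404-1916504 for egl-18, chrV:8798143-8798243 for magu-2, chrII:4585631-4585731 for vab-1 and chrIV:8070982-8071082 for sax-7.
C46H3.2: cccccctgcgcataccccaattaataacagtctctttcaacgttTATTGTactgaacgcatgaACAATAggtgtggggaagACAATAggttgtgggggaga
egl-18 intron 3: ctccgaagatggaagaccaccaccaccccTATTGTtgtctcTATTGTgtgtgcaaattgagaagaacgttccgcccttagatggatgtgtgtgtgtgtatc
magu-2: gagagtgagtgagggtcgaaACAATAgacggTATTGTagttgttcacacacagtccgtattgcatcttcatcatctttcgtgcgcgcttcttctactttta
vab-1: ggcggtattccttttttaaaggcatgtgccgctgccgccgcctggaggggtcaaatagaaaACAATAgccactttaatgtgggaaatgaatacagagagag
sax-7: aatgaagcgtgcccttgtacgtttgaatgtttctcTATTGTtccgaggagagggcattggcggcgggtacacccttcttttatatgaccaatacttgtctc
The site occurred 3 times in the C46H3.2 window and 2 times in each of the egl-18 and magu-2 windows.

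In the second set, capitals mark the SOX core, CATTGT or CTTTGT, on either strand. The first 3 are among the stronger thresholded peaks that hold it. The egl-18 peak is a weaker one in the long first intron, shown because it and ncl-1 hold 2 copies each. The windows are at chrIV:13029881-13029981 for mbk-2, chrII:6939995-6940095 for flcn-1, chrIII:7725471-7725571 for ncl-1 and chrIV:1903893-1903993 for egl-18.
mbk-2: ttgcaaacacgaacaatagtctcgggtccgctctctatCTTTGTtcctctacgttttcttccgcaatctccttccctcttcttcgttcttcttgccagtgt
flcn-1: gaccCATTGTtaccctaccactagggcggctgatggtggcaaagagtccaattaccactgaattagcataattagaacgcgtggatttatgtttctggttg
ncl-1: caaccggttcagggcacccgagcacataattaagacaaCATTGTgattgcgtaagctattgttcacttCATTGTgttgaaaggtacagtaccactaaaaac
egl-18 intron 1: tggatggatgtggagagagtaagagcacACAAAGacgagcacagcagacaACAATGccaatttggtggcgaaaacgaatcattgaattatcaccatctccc
In the third set, capitals mark CGTCTC or its reverse complement, the 6-mer with the lowest p among those more frequent at the summit than in the flank. The windows are at chrIV:5600467-5600567 for fkh-7, chrIII:5014008-5014108 for larp-1 and chrIII:13721351-13721451 for lit-1.
fkh-7: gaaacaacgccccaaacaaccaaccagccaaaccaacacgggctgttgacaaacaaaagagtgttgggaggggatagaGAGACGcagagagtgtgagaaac
larp-1: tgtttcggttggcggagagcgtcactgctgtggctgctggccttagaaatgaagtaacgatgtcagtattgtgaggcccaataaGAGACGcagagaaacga
lit-1: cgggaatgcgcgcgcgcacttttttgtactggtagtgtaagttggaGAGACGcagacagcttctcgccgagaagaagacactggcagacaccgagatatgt
In these 3 windows the 6-mer lay within the longer run CTGCGTCTC, read on either strand.

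The strongest intronic peaks lay in genes of several kinds and stood high in both replicates. Signal here means the authors' own number per peak, whose scale is not given in the sources used. It runs higher in the pooled list than in the lists of single replicates. The peak in intron 7 of C46H3.2 (chrX, summit 1223961, intron of 6973 bp) had a pooled signal of 221, with 113 in replicate 1 and 102 in replicate 2 (108 ± 7.47, SD, n = 2). The peak in intron 3 of egl-18, which encodes a GATA factor of the epidermal seam cells, had 103 in replicate 1 and 99.3 in replicate 2 (101 ± 2.66). Its nearest 5′ end, 1523 bp away, is that of elt-6, a second GATA factor gene of the epidermis. These were the highest intronic values of each replicate. The peak of Y111B2A.12 had 82.9 in replicate 1 and 71.5 in replicate 2. That of mbk-2, a DYRK kinase of the oocyte-to-embryo transition, had 62.8 and 85.8. That of cmk-1, calcium/calmodulin-dependent kinase I, had 68.5 and 84.3. All 3 stood below C46H3.2 and egl-18 in both replicates.

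Further down, tol-1 (the Toll-like receptor) had 65.9 in replicate 1 and 81.9 in replicate 2, and zfp-1 (a chromatin protein related to AF10) had 62.2 and 83.1. The peak of unc-104, the kinesin that carries synaptic vesicle precursors, had 57.7 and 80.5. In these hosts replicate 2 was the higher. The peak of Y41G9A.17 had 78.1 in replicate 1 and 66.7 in replicate 2, so there replicate 1 was the higher. The peak of hmr-1, the classical cadherin of epithelial junctions and axons, had 68.8 in replicate 1 and 65.4 in replicate 2 (67.1 ± 2.37). That of sax-3, the Robo receptor, had 71.2 and 66.5 (68.8 ± 3.36). That of mom-1, the Porcupine enzyme of Wnt secretion, had 57.5 and 58.5 (58.0 ± 0.754). For these 3 hosts the replicates differed by under 5 units. The largest gap among the 20 strongest was at daf-16, the FOXO factor of insulin signalling, with 76.5 in replicate 1 and 51.0 in replicate 2. Of the 20 strongest peaks, 19 passed the threshold in each replicate's own list, and the exception was flcn-1 (folliculin), with 69.1 in replicate 1 and 45.5 in replicate 2, which passed in replicate 1 alone.

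**Figure D1:**
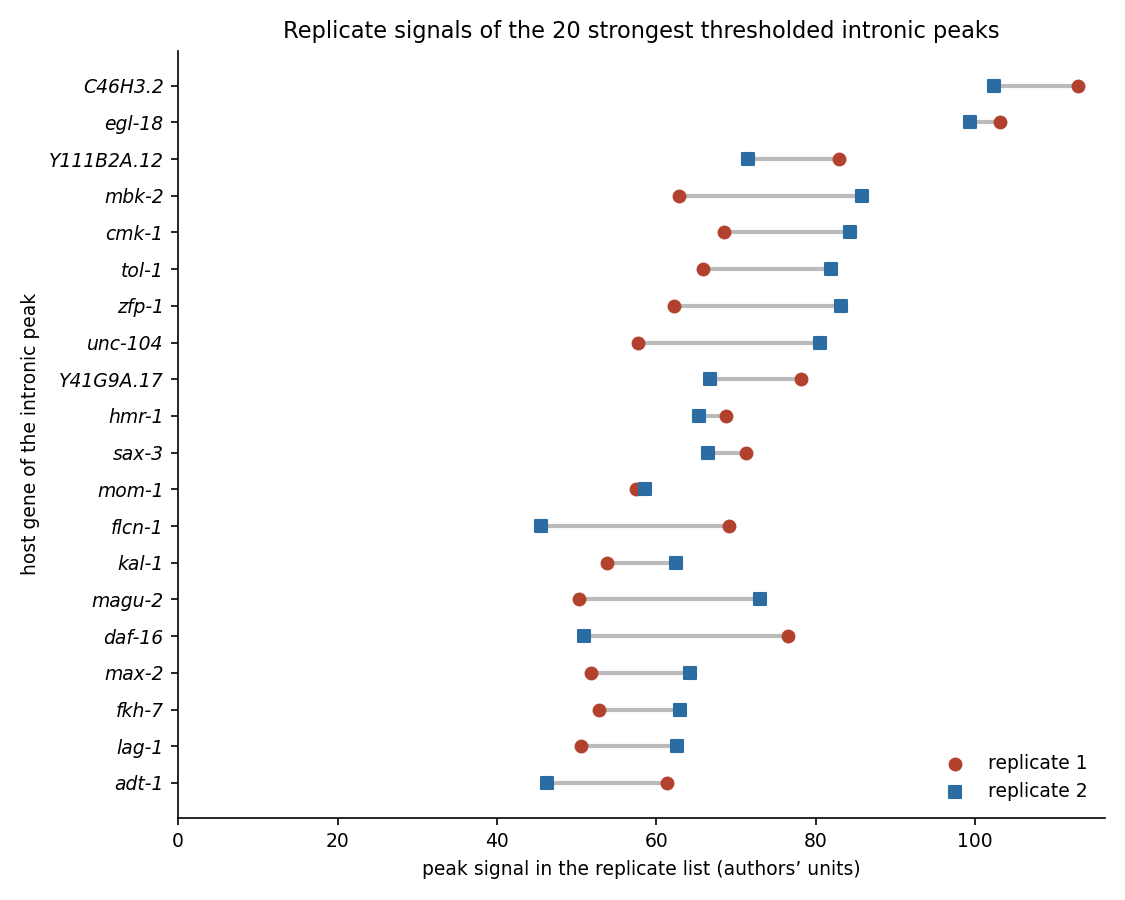
Peak signal in the replicate 1 list (circles) and the replicate 2 list (squares) for the 20 strongest thresholded intronic peaks, in the authors' units, with host genes in order of pooled signal from the top. Replicate 1 ranges from 50.3 to 113 and replicate 2 from 45.5 to 102, and replicate 1 is the higher at 9 of the 20 peaks.

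Support beyond the pooled list varied. Of the 75 thresholded intronic peaks, 58 were also in the conservative list, against a background of 7.45% of all nuclear ranked peaks in that list. In each replicate's own list 54 passed in replicate 1 (background 6.39%) and 45 in replicate 2 (background 6.56%). These lists come from the same libraries as the pooled list, so the excess over the background follows from how the 75 were chosen and is given as a description. Both replicates passed for 33 peaks, replicate 1 alone for 21, replicate 2 alone for 12 and neither for 9. A ranked summit within 100 bp was present in both replicates for 71 of 75, and the signals there had a Spearman correlation of 0.356 over those 71 peaks, which share their libraries. The 4 with a single replicate value were both pqn-41 peaks, the weaker Y111B2A.12 peak and T28F4.1. The pooled signal of the 75 ranged from 55.9 to 221 with a median of 97.7, against 32.8 to 88.2 with a median of 39.0 for the 1654 intronic peaks below the threshold, so the ranges overlap. The widest split between replicates was at polg-1, the mitochondrial DNA polymerase, with 26.5 in replicate 1 and 73.6 in replicate 2.

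The 3 peaks just inside the threshold were those of C02B10.3 (IDR 0.913%), T28F4.1 (0.961%) and egl-27 (0.982%), with pooled signals of 76.8, 55.9 and 88.1. Just outside stood ddr-2 (1.00%), W05B5.1 (1.14%) and inso-1 (1.29%), with pooled signals of 62.3, 77.0 and 80.6. The signals on either side overlap. A peak in usp-39 had an IDR of 0.203% and a signal of 88.2, the highest of the intronic peaks outside the list, and is counted below the threshold because the thresholded list lacks it.

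Intronic peaks reached the threshold less often than promoter-proximal and intergenic ones and more often than exonic ones. Over all nuclear ranked peaks, those near small RNA genes included, 7.78% were in the thresholded list. Of intronic peaks 75 of 1729 were (4.34%, Wilson 95% interval 3.47 to 5.40), against 249 of 2850 promoter-proximal peaks (8.74%, two-sided Fisher's exact test, p = 1.34e-08 adjusted over 3 comparisons). The share was 129 of 1967 among intergenic peaks (6.56%, Fisher's exact test, adjusted p = 0.00379). Among peaks with the summit in an exon it was 4 of 1145 (0.349%, exact test, adjusted p = 2.70e-12). With 1 peak kept per host gene, the gap to intergenic peaks was -1.34 percentage points and no longer passed the exact test (p = 0.130). That setting thinned the intronic peaks alone and kept a thresholded peak in all 66 hosts that had one. Mostly peaks below the threshold were dropped, which raised the intronic share. It therefore cannot show whether the gap depends on hosts with several peaks. Per Mb of sequence that each class could occupy, thresholded peaks numbered 2.84 in introns, 9.61 near promoters, 6.02 between genes and 0.186 in exons. The median signal of thresholded peaks lay close together, at 97.7 for intronic, 96.7 for promoter-proximal and 99.2 for intergenic peaks. Peaks of the same lists share the libraries, so these p-values say nothing of how embryo cultures vary.

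**Figure D2:**
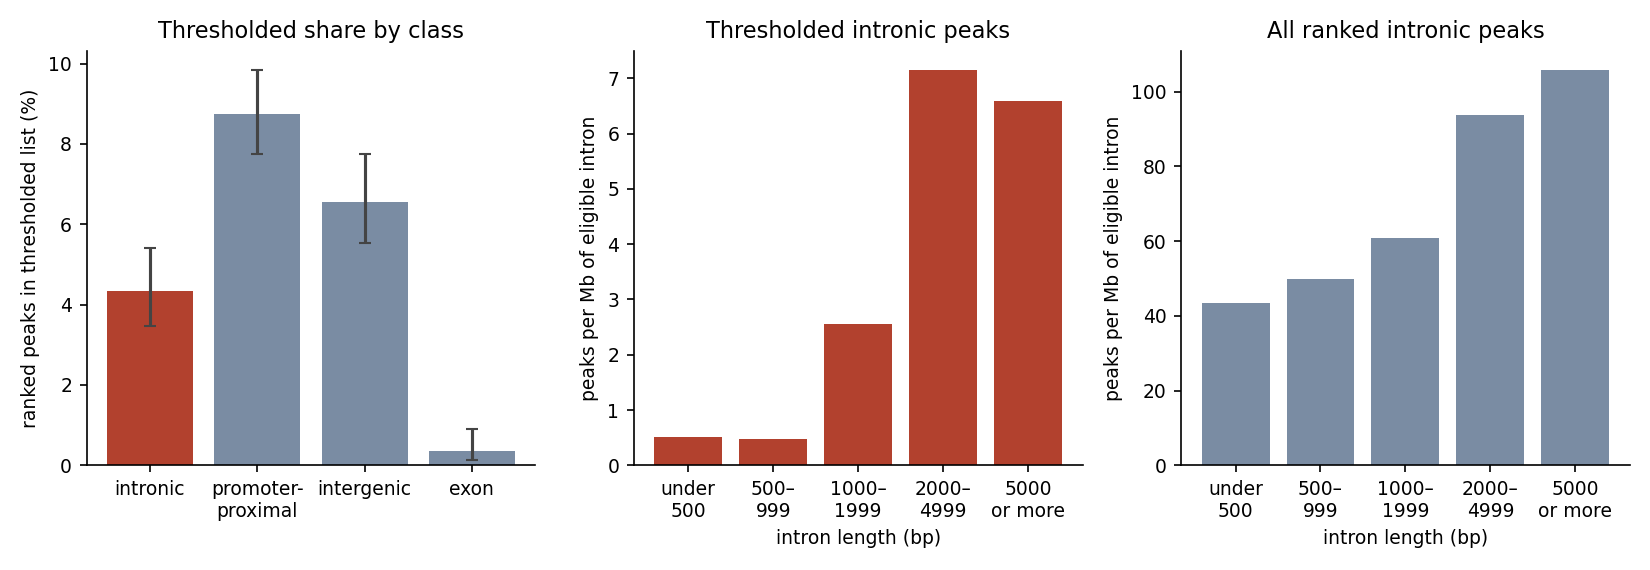
Left, share of ranked peaks in the thresholded list (%) by class, with Wilson 95% intervals as bars. Middle and right, thresholded and all ranked intronic peaks per Mb of intron that met the position rule, by intron length in bp. Thresholded peaks lie at 0.518 and 0.479 per Mb in the shortest 2 bins and at 7.14 and 6.59 in the longest 2, while all ranked peaks lie between 43.5 and 106 per Mb.

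Thresholded intronic peaks were concentrated in long introns. Their introns had a median of 3635 bp (386 to 16465), against 1477 bp (42 to 23892) for intronic peaks below the threshold. The median of all 103832 introns, 1 transcript per gene, was 64 bp, and 6.84% of those introns reach 1000 bp. Introns of at least 1000 bp held 68 of the 75 thresholded peaks (90.7%, 82.0 to 95.4), against 1010 of 1654 below the threshold (61.1%, 58.7 to 63.4). The difference of 29.6 percentage points passed the two-sided Fisher's exact test (p = 8.70e-08 adjusted over 3 comparisons). Of the intron bases that met the position rule, 46.6% lay in introns of at least 1000 bp. The density of thresholded peaks differed more across intron lengths than that of all ranked peaks. It was 0.518 per Mb under 500 bp, 0.479 at 500 to 999 bp, 2.55 at 1000 to 1999 bp, 7.14 at 2000 to 4999 bp and 6.59 from 5000 bp, against 43.5, 49.9, 60.9, 93.8 and 106 per Mb for all ranked peaks. These densities cover the 69 thresholded and 1664 ranked peaks that lie in an intron of the transcript chosen for their gene. The longest intron with a thresholded peak was intron 1 of fkh-7, a forkhead factor gene, at 16465 bp. Its summit lay 15333 bp into that intron but 1190 bp from the 5′ end of another fkh-7 transcript. The shortest, at 386 bp, was intron 2 of mdt-26, which encodes a Mediator subunit. Within the thresholded peaks signal hardly followed intron length (Spearman correlation 0.0572 over 75 peaks), and over all 1729 it was 0.186.

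Position within the gene separated the sets less. The first intron held 26 of 75 thresholded peaks (34.7%, 24.9 to 45.9), against 389 of 1654 below the threshold (23.5%), which passed Fisher's exact test narrowly (adjusted p = 0.0370). That call was lost without replicate 1 (8.49 points, exact test, p = 0.161), without replicate 2 (10.8 points, p = 0.0616) and with a promoter window of 2000 bp upstream to 500 bp downstream (3.27 points, p = 0.594). Among the stronger thresholded peaks, a smaller set cut by signal, the difference was -2.83 points and did not pass (exact test, p = 0.828). Intron 1 peaks included those of sax-3, kal-1 (the anosmin homologue), fkh-7, lag-1 (the CSL effector of Notch signalling) and ncl-1. The sixth or a later intron held 22 of 75 thresholded peaks and 473 of 1654 others. The most 3′ by rank was the peak in intron 27 of 27 of adt-1, a secreted metalloprotease gene. Thresholded summits lay a median of 847 bp from the nearest exon, against 337 bp below the threshold. These distances were not adjusted for intron length, which was greater at thresholded peaks. As a share of intron length, the medians from the 5′ end of the intron were 38.0% and 49.1%. Intron rank follows 1 transcript, so a summit far along it can lie near the 5′ end of another. The nearest protein-coding 5′ end was a median of 1663 bp from thresholded summits and 1736 bp from the others. It belonged to the host for 62 of 75 thresholded peaks (82.7%) and for 84.5% of the others. Among the exceptions were egl-18 (elt-6), hmr-1 (Y52B11B.1), cmk-1 (ccm-2) and mom-1 (cest-16).

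Thresholded summits fell less often in soft-masked sequence. The base at the summit was soft-masked in the RefSeq sequence, which marks repeats and low-complexity DNA, at 11 of 75 thresholded peaks (14.7%, 8.39 to 24.4). Below the threshold it was at 563 of 1654 (34.0%, Fisher's exact test, adjusted p = 5.58e-04), and of all intron bases that met the position rule 52.7% were soft-masked. GC content within 100 bp of the summit had a median of 45.8% at thresholded peaks and 39.8% at the others, against 31.8% over all those intron bases. GC content was not tested, nor was whether the soft-masked share follows it. Soft-masking was not set against a separate annotation of repeats. An annotated miRNA gene lay within 500 bp of 3 thresholded summits and 8 others, and another non-coding RNA gene within 500 bp of 13 and 200.

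The SOX core was more frequent at intronic summits than beside them, but for the thresholded peaks the difference did not pass the test. CATTGT or CTTTGT on either strand, within 50 bp of the summit, occurred at 18 of 75 thresholded peaks (24.0%, 15.8 to 34.8), against 13.3% in windows of the same width 300 bp to either side (two-sided exact McNemar test against 1 flank per peak, p = 0.0931). Without replicate 2 the excess did pass the exact test (13.8 percentage points, p = 0.00342), and so it did in the conservative list (9.52 points, p = 0.0386). With 1 peak kept per host gene it was 6.06 points (exact test, p = 0.481), and within 100 bp of the summit 9.33 points (p = 0.281). Below the threshold it was 246 of 1654 (14.9%, 13.2 to 16.7) against 9.16% in the flanks (exact McNemar test, p = 1.15e-07). Of all 217705 windows of 101 bp tiled over the introns, 8.58% held it. The gap of 9.13 percentage points between thresholded and other intronic peaks did not pass (Fisher's exact test, p = 0.140 adjusted over 3 comparisons), nor did that to thresholded promoter-proximal peaks (24.9%, adjusted p = 1.00) or thresholded intergenic peaks (32.6%, adjusted p = 0.311). Restricted to within 25 bp of the summit, or to CATTGT alone, the first of these gaps did pass the exact test, at p = 0.0433 and p = 0.0219. It was smaller and did not pass with 1 peak per host gene (5.20 points, exact test, p = 0.420), within 100 bp (4.73 points, p = 0.350), in the conservative list (3.92 points, p = 0.505) and in the stronger thresholded peaks (2.37 points, p = 0.791). Of the 18 peaks, 6 passed in both replicates, against 33 of the 75 in all.

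The 6-mer scan found other letters at thresholded summits. Of 2080 6-mers, each merged with its reverse complement, 29 (1.39%) differed between the summit and flank windows of the 75 peaks in exact McNemar tests after Benjamini-Hochberg adjustment (142 before it), 7 higher at the summit and 22 lower. Each of the 22 held at most 1 G or C, and AAAATT, at 0 summits and 32 flanks, led them. The most significant of the 7 was CGTCTC, at 18 summits and none of the tested flanks (exact test, adjusted p = 0.00195), and the overlapping ACGCAG and AGACGC stood at 12 summits and 0 flanks each (adjusted p = 0.0350). ACAATA, the reverse complement of TATTGT, was at 28 summits and 7 flanks (exact test, adjusted p = 0.00602). CAATAG, which overlaps it, was at 17 summits and 1 flank (exact test, adjusted p = 0.0137). GAGAGA (24 and 6) and CACACA (18 and 3) had an adjusted p of 0.0214 each. Below the threshold 188 of the 2080 (9.04%) differed, 118 higher and 70 lower at the summit, and all 7 were among the higher ones with smaller gaps. There ACAATA was at 11.1% of summits and 6.41% of flanks (exact test, adjusted p = 3.22e-04), and CGTCTC at 5.26% and 3.08% (adjusted p = 0.0293).

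TATTGT stood out by its share. It was within 50 bp of 28 of 75 thresholded intronic summits (37.3%, 27.3 to 48.6), against 6.67% averaged over both flanks and 6.66% of all 101-bp intron windows. The share was 11.1% (9.64 to 12.7) below the threshold, 11.2% (7.90 to 15.8) at thresholded promoter-proximal peaks and 20.9% (14.8 to 28.7) at thresholded intergenic peaks. Because the 6-mer was picked at the thresholded intronic peaks, these shares are a description and the differences between classes were not tested. The longer CTATTGT was at 17 of 75 (22.7%), against 3.26% below the threshold and 1.01% of intron windows. Either TATTGT or the SOX core was present at 40 of 75 (53.3%) thresholded peaks and 24.4% of the others, and 6 thresholded peaks held both. Of the 28 peaks with TATTGT, 13 passed in both replicates, against 33 of the 75 in all. The 5 letters that TATTGT and CATTGT share, ATTGT, were at 44 of 75 (58.7%) thresholded summits, 32.3% of the others and 27.0% of intron windows.

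**Figure D3:**
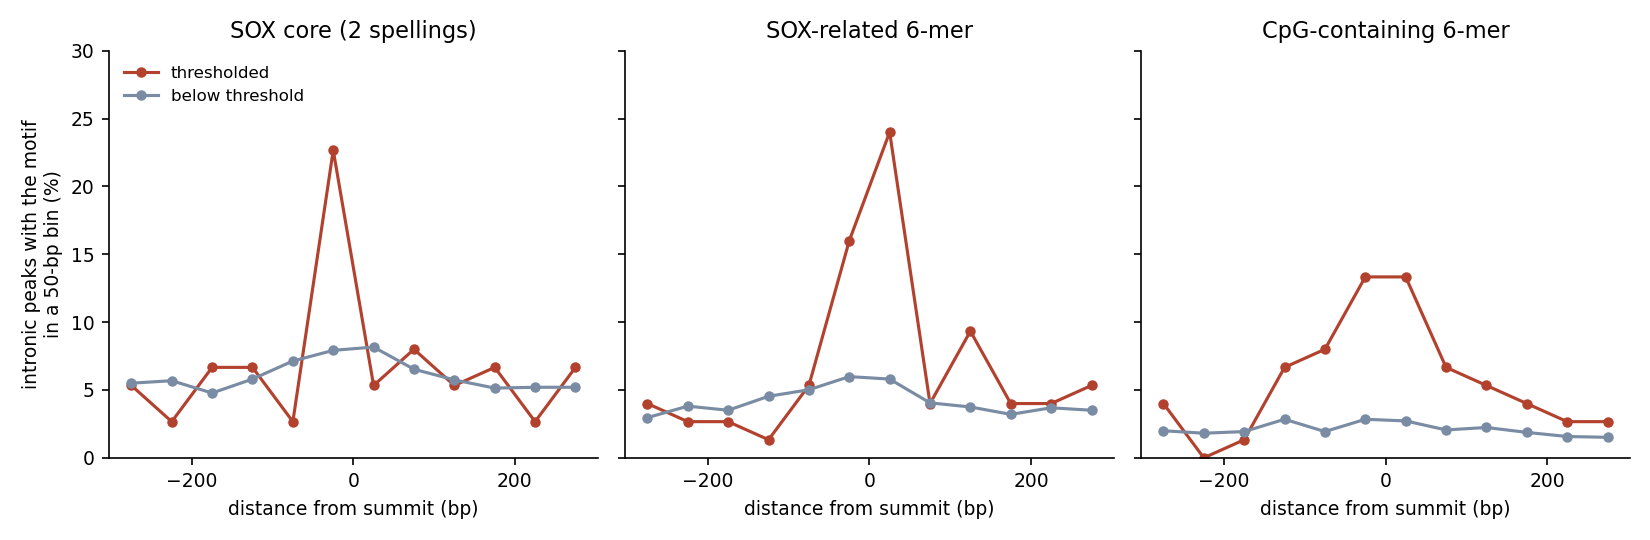
Share of intronic peaks (%) with a motif starting in each 50-bp bin around the summit, with distance in bp on the plus strand, for thresholded peaks (red) and peaks below the threshold (grey). From left, the SOX core in both spellings, TATTGT and CGTCTC, each on either strand. In thresholded peaks the SOX core reaches 22.7% in the bin before the summit and 5.33% in the bin after it, TATTGT reaches 16.0% and 24.0%, and CGTCTC 13.3% in each. Below the threshold the SOX core is at 7.92% and 8.16% in those bins. Differences between the sides were not tested.

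CGTCTC was at 24.0% of thresholded intronic summits (15.8 to 34.8), 5.26% of intronic summits below the threshold, 17.3% (13.1 to 22.5) of thresholded promoter-proximal summits and 14.7% (9.64 to 21.9) of thresholded intergenic summits, with 1.87% of intron windows. The longer CTGCGTCTC was at 9 of 75 thresholded summits (12%) and 0.473% of intron windows. Of the 18 peaks with CGTCTC, 9 held neither TATTGT nor the SOX core. The run GAGAGAG, which can overlap the reverse complement of CGTCTC, was at 12 of 75 thresholded summits (16.0%), against 2.67% of flanks. At the others it was 5.26% against 2.33%. These shares, too, are a description, since the run was picked after its values were seen. 4 peaks held both CGTCTC and GAGAGAG. For the GATA-type site (GATA preceded by A or T and followed by A or G) the share was 14.7% of thresholded summits and 21.3% of flanks. The POU octamer, ATGCAAAT or ATGCTAAT, was at 4 of 75 summits (5.33%) and 1.33% of flanks. Of the 75 peaks, 22 held none of TATTGT, the SOX core, CGTCTC and GAGAGAG.

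Most hosts had 1 intronic peak and a few had many. Of 17258 protein-coding genes with intron bases that met the position rule, 7.34% hosted a ranked peak and 0.382% a thresholded one. Among the 1266 hosts, 1018 had 1 ranked peak, 248 had at least 2 and 26 had at least 5. Hosts of ranked peaks were 1.64% of genes with up to 1 kb of such intron and 59.8% of the 341 genes with over 10 kb. Thresholded peaks were hosted by 24 of those 341 genes (7.04%) and by 0 of the 10623 genes with up to 1 kb. Another ranked peak shared the intron for 34 of 75 thresholded peaks (45.3%) and 21.5% of the others. A thresholded promoter-proximal peak accompanied 8 of the 66 hosts of thresholded intronic peaks (12.1%), 3.16% of all ranked hosts and 1.51% of genes with such introns. These include zfp-1 and egl-27.

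The cadherin gene hmr-1 had the most, with 15 ranked peaks spread over 8 introns and 44.6 kb of qualifying intron. Its single thresholded peak, in intron 6, had a signal of 137, and the other 14 ran from 33.1 to 70.6. The strongest of those, in intron 25, had 30.04 in replicate 1 and 36.3 in replicate 2. Intron 21, of 18310 bp, held 5 of the 15, and all 5 were below the threshold. The Eph receptor gene vab-1 had 11 peaks in 15.1 kb, of which 2 in intron 5 were thresholded. They had 60.6 in replicate 1 and 36.5 in replicate 2, and 42.0 and 59.9, so each replicate favoured a different peak. The other 9 vab-1 peaks had pooled signals of 39.9 to 54.1.

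The GATA factor gene egl-18 had 8 peaks, of which 5 were in its 11092 bp first intron. That intron belongs to a transcript which starts upstream of the others, and its thresholded peak had 37.9 in replicate 1 and 21.7 in replicate 2 (29.8 ± 11.5). The intron 3 peak, whose intron is numbered on another transcript, was more than 3 times as high by pooled signal, 201 against 61.8. The remaining 6 peaks had 34.8 to 68.3. No peak passed the threshold in daf-5, a SNO/SKI family gene of TGF-beta signalling, where 7 of 8 peaks lay in the first intron (34.6 to 65.1), or in zfh-2, a zinc finger homeobox gene with 8 peaks over 6 introns (34.1 to 53.3).

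**Figure D4:**
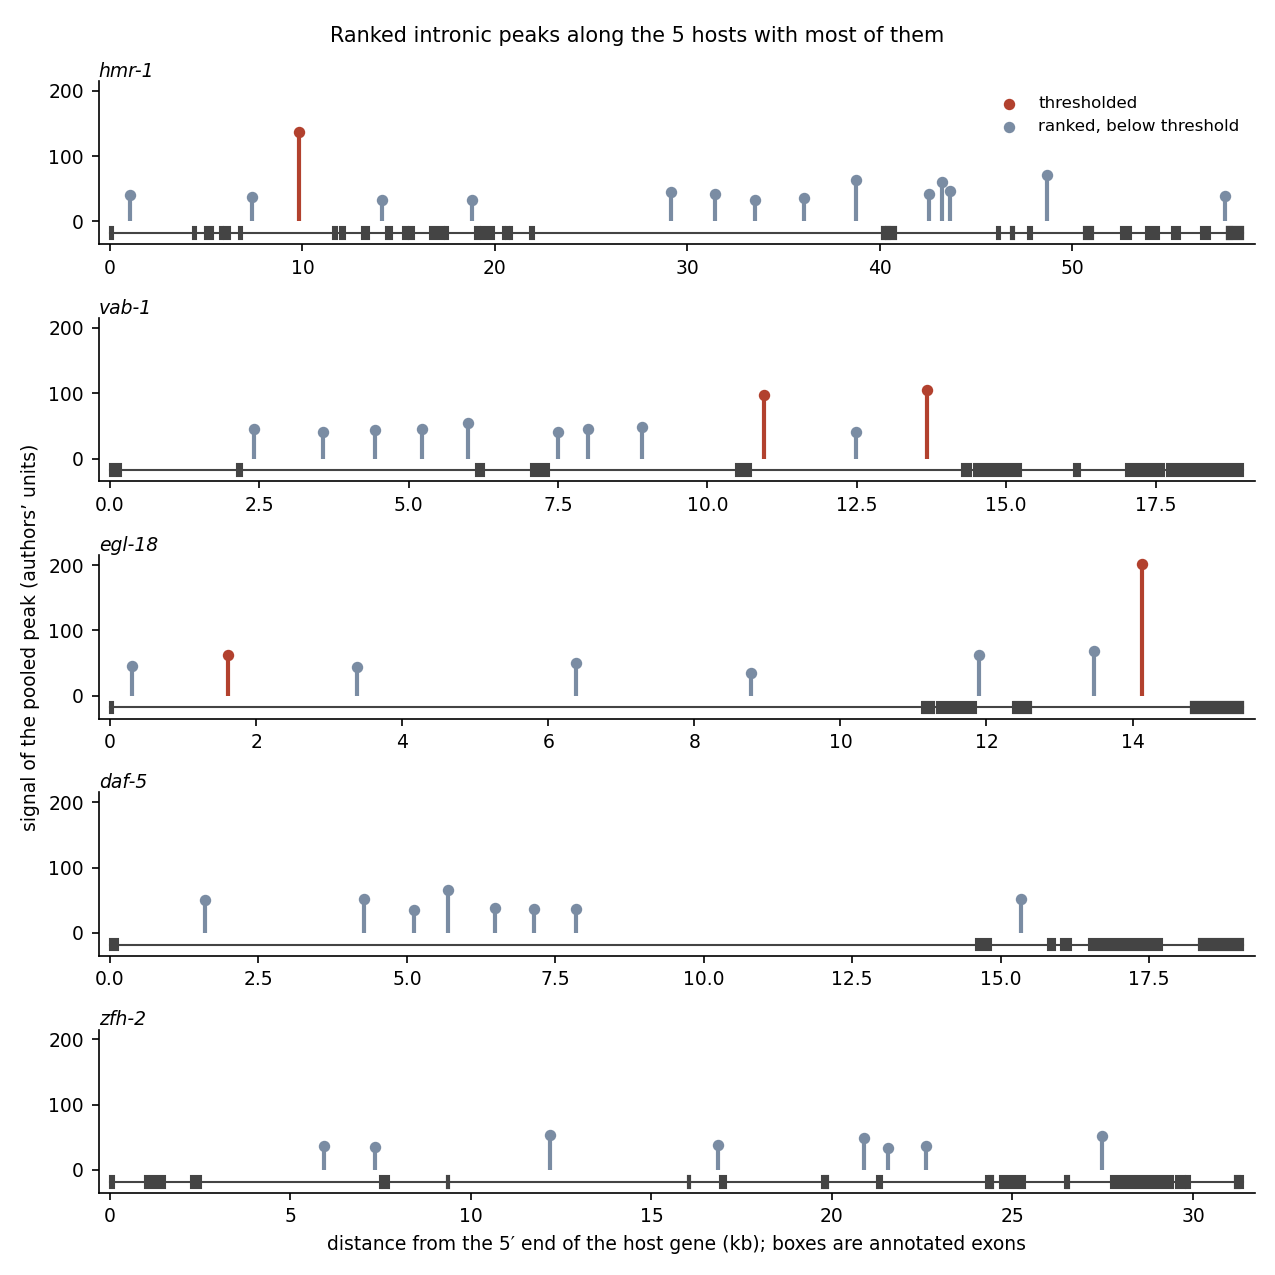
Ranked intronic peaks along the 5 host genes with most of them, by distance from the 5′ end of the gene in kb, with annotated exons as boxes and the pooled signal of each peak as height. Thresholded peaks (red) stand at 137 in hmr-1, at 97.4 and 105 in vab-1 and at 61.8 and 201 in egl-18, and daf-5 and zfh-2 have none.

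Of the hosts, 9 had 2 thresholded peaks and none had 3. Beside egl-18 and vab-1 they were tol-1, zfp-1, igcm-4 (an immunoglobulin-domain adhesion gene), egl-27 (an MTA-related chromatin factor), Y111B2A.12, kup-1 and pqn-41 (a Q/N-rich protein). In zfp-1 the peaks in introns 4 and 9 had 62.2 and 47.5 in replicate 1, and 83.1 and 49.2 in replicate 2. The same peak was the higher in both replicates. In igcm-4 both peaks lay in intron 2, with 58.3 and 51.5 in replicates 1 and 2 for the stronger, and 30.5 and 49.97 for the other. The egl-27 peaks of introns 5 and 10 went opposite ways, with 49.7 in replicate 1 and 37.0 in replicate 2 for intron 5, and 31.2 and 55.6 for intron 10.

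Genes of axon guidance and cell adhesion were frequent hosts. Of the 83 genes on that list with qualifying introns, 38 (45.8%) hosted a ranked intronic peak and 6 (7.23%) a thresholded one, against 7.34% and 0.382% of all genes. Their introns are long, with a median of 4.32 kb per gene against 0.682 kb over all genes. Per Mb they held 199 ranked and 12.7 thresholded peaks, against 64.4 and 2.79 over all genes, and the ranked density was 171 per Mb without hmr-1 and vab-1. Among genes with 5 to 10 kb of intron, 11 of 16 on the list (68.8%) and 33.3% of all genes were hosts. Among those with over 10 kb, 16 of 19 (84.2%) and 59.8% were. These counts describe the list and were not tested. The 4 strongest of its thresholded hosts were hmr-1, sax-3, vab-1 and sax-7 (the L1 family adhesion molecule), and the sax-7 peak had 41.5 in replicate 1 and 57.4 in replicate 2.

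Ion channel genes have introns of like length and held fewer hosts by count. Of 86 with qualifying introns (median 4.17 kb), 19 (22.1%) hosted a ranked peak and 0 a thresholded one, at 50.1 ranked peaks per Mb. Their order against the other genes differed with intron length. Up to 2 kb of intron 2 of 25 ion channel genes (8%) were hosts, against 1 of 21 guidance and adhesion genes (4.76%) and 2.73% of all genes. At 2 to 5 kb it was 1 of 23 ion channel genes, against 10 of 27 guidance and adhesion genes and 17.0% of all genes. At 5 to 10 kb it was 5 of 20 (25%), against 33.3% of all genes. Above 10 kb it was 11 of 18 (61.1%), against 59.8% of all genes. The synapse list had 25 hosts of 99 (25.3%) and 1 thresholded host, unc-104, at 73.0 ranked peaks per Mb, against 64.4 over all genes. Differences between the lists were not tested.

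**Figure D5:**
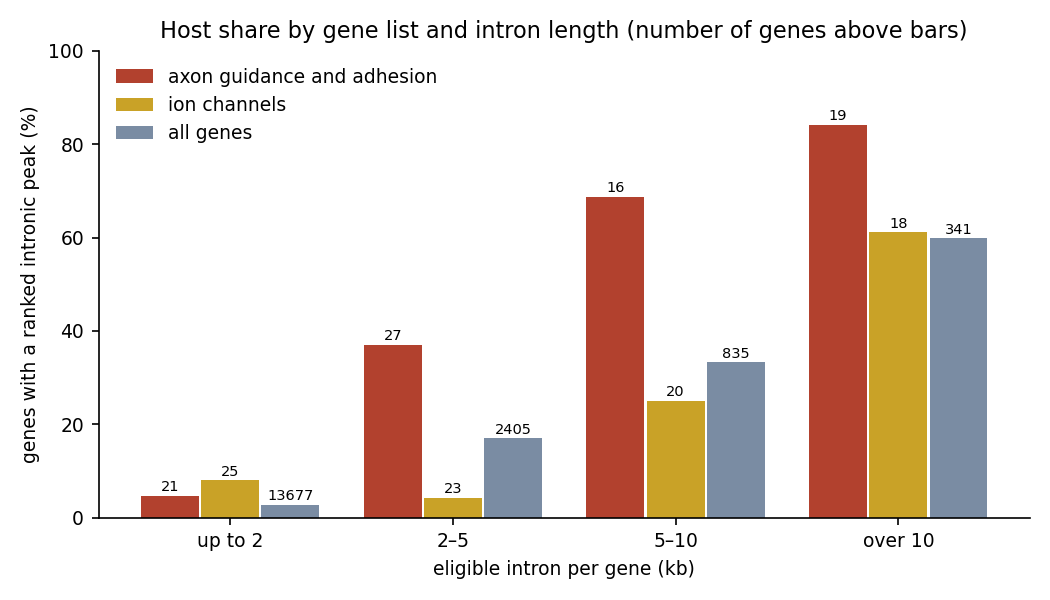
Share of genes (%) that host a ranked intronic peak, by qualifying intron per gene in kb, for axon guidance and adhesion genes, ion channel genes and all protein-coding genes, with the number of genes above each bar. Above 2 kb the guidance and adhesion bars, 37.0%, 68.8% and 84.2%, stand above those of ion channel genes at 4.35%, 25% and 61.1%, and up to 2 kb the ion channel bar is the higher, at 8% against 4.76%.

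Lists of developmental regulators held several thresholded hosts each. Over all genes, 7.34% were ranked and 0.382% thresholded hosts, at 64.4 ranked and 2.79 thresholded peaks per Mb. Of 144 developmental transcription factor genes 30 (20.8%) were ranked hosts and 4 (2.78%) thresholded ones, at 126 ranked and 11.9 thresholded peaks per Mb. Those 4 were daf-16, fkh-7, lag-1 and egl-27. The GATA factor gene egl-18, also a thresholded host, is not on that list. The fkh-7 peak had 52.9 in replicate 1 and 63.0 in replicate 2, and the lag-1 peak 50.6 and 62.6, so replicate 2 was the higher in both. Of 82 genes of Wnt, Notch, TGF-beta and receptor tyrosine kinase signalling, 23 (28.0%) were ranked hosts and 3 (3.66%) thresholded, at 135 ranked and 10.4 thresholded peaks per Mb. These were lag-1, lit-1 (the Nemo-like kinase) and cam-1 (the ROR receptor). That list lacks mom-1 and vab-1, which are also thresholded hosts. The lit-1 peak had 43.5 in replicate 1 and 55.2 in replicate 2, and the cam-1 peak 46.6 and 33.9. The homeobox genes named ceh had 4 ranked hosts of 63 (6.35%) and 0 thresholded. That share was near the 7.34% of all genes, but their 35.1 ranked peaks per Mb, from 4 peaks, lay below the 64.4 of all genes.

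Genes of the cytoskeleton, cell junctions and polarity had 16 ranked hosts of 64 (25%), against 7.34% of all genes, at 129 ranked peaks per Mb against 64.4. Of the 47 ranked peaks behind that density, 15 were in hmr-1. The median qualifying intron of these genes was 2.57 kb, against 0.682 kb over all genes. The 4 thresholded hosts (6.25%, against 0.382% of all genes) were hmr-1, max-2 (a PAK kinase), klc-2 (kinesin light chain) and par-1 (the polarity kinase). The max-2 peak had 51.8 in replicate 1 and 64.3 in replicate 2. At klc-2 the replicates were far apart, with 64.2 and 31.7, and at par-1 they were 44.9 and 33.3. Both of those peaks passed in replicate 1 alone.

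Epidermal genes had 10 ranked hosts of 36 (27.8%), at 179 ranked peaks per Mb against 64.4 over all genes, and egl-18 was the thresholded host. It held 8 of the 24 ranked peaks of these genes. Muscle genes had 12 of 59 (20.3%, against 7.34% of all genes), but with a median qualifying intron of 2.28 kb they held 62.3 ranked peaks per Mb, near the 64.4 of all genes. Their 2 thresholded hosts were dys-1 (dystrophin; 53.3 in replicate 1 and 50.7 in replicate 2) and act-4 (an actin; 45.4 and 34.7). Glial genes had 4 ranked hosts of 27 at 85.9 ranked peaks per Mb, with lit-1 as the thresholded one. The list of chromatin and RNA genes had 10 of 60 at 78.2 ranked peaks per Mb, with asd-2 (a STAR RNA-binding protein) thresholded. That list lacks zfp-1 and egl-27, which are also thresholded hosts. The list of phosphodiesterase, G protein and kinase genes had 16 of 45 (35.6%), with cmk-1 thresholded. That list lacks the kinase genes mbk-2, max-2, par-1 and lit-1, which are also thresholded hosts. At a median qualifying intron of 4.51 kb, the 63.0 ranked peaks per Mb of its genes were near the 64.4 of all genes. Of the SOX genes 1 of 5 hosted a ranked peak, which was below the threshold. Intestinal genes had 2 of 27 and germline genes 3 of 46 ranked hosts, with 0 thresholded in both. These shares, 7.41% and 6.52%, lay near the 7.34% of all genes. Per Mb, intestinal genes had 37.3 ranked peaks, and germline genes, whose median qualifying intron was 0.266 kb, had 140 from 4 peaks.

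Over all genes, 7.34% were ranked hosts and 0.382% thresholded hosts. Of the classes taken by gene name, chemoreceptor genes had 33 ranked hosts of 1273 (2.59%) and 1 thresholded, srt-52, with 55.4 in replicate 1 and 36.1 in replicate 2. Collagen genes had 2 of 108 (1.85%), with col-72 thresholded (54.4 and 39.1). C-type lectin genes had 2 of 231 (0.866%), nuclear hormone receptors 15 of 263 (5.70%) and F-box genes 6 of 240 (2.50%), with no thresholded host in these 3 classes. Genes named unc had 27 of 93 (29.0%), and 2 were thresholded hosts, unc-104 and unc-132. Genes of the immunoglobulin domain class had 6 of 29 (20.7%), of which igcm-4 and igcm-3 were thresholded. Ranked peaks per Mb numbered 41.6 for chemoreceptors, 48.7 for collagens, 11.3 for C-type lectins, 49.6 for nuclear hormone receptors and 45.3 for F-box genes. They numbered 94.9 for genes named unc and 180 for the immunoglobulin domain class, against 64.4 over all genes. Intron length differed between these classes. The median qualifying intron per gene was 0.484 kb for chemoreceptors and 0.511 kb for C-type lectins, against 2.70 kb for genes named unc.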

How the data were processed

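Peak lists of 2 biological replicates were used on the ce11 build, as deposited. The signal of each peak is the authors' value in the deposited lists, on an unnamed scale. The deposited ranked lists hold a 12th column read as −log10 of the irreproducible discovery rate, since the deposited thresholded peaks have at least 2 in it. Aligner, peak caller and their versions: not given in the sources used here. Read depth is unknown. In the pooled ranked lists 4 signal columns without a sample name were left out. Summits were placed on Ensembl release 115 gene models and the RefSeq WBcel235 sequence, with Python 3.11.15, scipy 1.17.1 and pandas 2.3.3. The host was the gene whose intron held the summit, by the transcript with the longest coding sequence among those with an intron there. Where genes overlapped, the shortest intron decided. Wilson 95% intervals are given for shares and reflect counting error alone. Differences between shares were tested by Fisher's exact test (two-sided), adjusted by Benjamini-Hochberg in families of 3, and motifs with exact McNemar tests, with a threshold of 0.05.

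The members and gene lists were chosen with earlier results of these data known. The gene lists are partial, so a gene of a named kind can be missing from the list of that kind. Hosts named are those of the 15 strongest thresholded peaks, up to 4 thresholded hosts per list, the 5 hosts with most ranked peaks, those with 2 thresholded peaks and the 3 peaks on each side of the threshold. Other hosts, and the motifs built on ATTGT with a leading T, on CGTCTC, on GAGAGAG and on GATA, were picked after their values were seen.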

Additional observations from a re-analysis of the deposited data

How the results depend on the processing

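No paired analysis was possible because the series has 1 group. Of the 108 alternative values computed, 95 kept their direction and their side of the threshold or, for counts, were taken as kept. Among the counts taken as kept, the 75 thresholded intronic peaks fell to 51 with a promoter window of 2000 bp upstream to 500 bp downstream. The 95 also include every value of the long intron share, the soft-masked share and the gaps of intronic to promoter-proximal and exonic peaks. The rest follow, and their causes were not tested. With the conservative list, the excess of the SOX core over the flank at thresholded peaks passed the exact test (9.52 points, p = 0.0386), and 14 6-mers differed in place of 29. With windows of 100 bp to each side, 46 did. With 1 peak per host, a setting that thinned the intronic peaks alone, the gap to intergenic peaks was -1.34 points (exact test, p = 0.130). The SOX core gap between thresholded and other intronic peaks passed the exact test within 25 bp (8.44 points, p = 0.0433) and with CATTGT alone (9.90 points, p = 0.0219). The SOX core gap to thresholded promoter-proximal peaks, -0.900 points, turned to 4.76 within 25 bp (exact test, p = 0.462). With the list of a single replicate it lay between -0.902 and 1.89, and the SOX core excess over the flank between 13.8 (passed) and 14.4. The first intron gap of 11.1 points fell to 3.27 with the wider promoter window (exact test, p = 0.594) and to -2.83 in the stronger thresholded peaks (p = 0.828). It was 8.49 to 10.8 with single replicate lists, and neither passed. With single replicate lists the 75 thresholded intronic peaks became 58 to 59, the gap to promoter-proximal peaks -3.75 to -3.42 and that to intergenic peaks -2.44 to -1.93 points. Depth could not be weighed, since it is unknown.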
